A study of Mus musculus with 4 samples.

Results

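Oligodendrocyte lineage genes are followed here in neural progenitors that were driven towards neurons with or without an inhibitor of PARP1 and PARP2. The 28 genes were taken by name, 13 as genes of the precursor stages and 15 as genes of maturation and myelin, out of 19937 genes named on the array. They were chosen with earlier results of these data known. Each of the 28 was measured by 1 probe set that the platform annotation assigns to that gene alone. Sphere-forming cells came from the walls of the lateral ventricles of C57BL/6 mice aged 9 to 12 weeks, and primary neurospheres were grown with growth factors. All 4 samples shared the same handling apart from the drug: cells were transfected with non-targeting control siRNAs, exposed to virus carrying Pax6, cultured for 36 h and then differentiated for 10 h on laminin without growth factors. The 2 DMSO samples were kept in 0.01% DMSO, and the 2 olaparib samples in 100 nM olaparib with the same amount of DMSO. The samples of a group are labelled as biological replicates, and no label ties them to separate mice. The p-values and SEs from limma rest on the spread between these samples. Most of a gene's error is drawn from that spread over all genes tested, and less from its own 4 arrays. With 2 arrays a group the precision is limited. Neurospheres are mixtures of stem cells, progenitors and their progeny, and no share of cells that took up the virus is stated in the labels. In such bulk RNA fewer cells of a type and less RNA per cell cannot be told apart.

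Oligodendrocytes wrap axons in myelin and arise from proliferating precursor cells. The basic helix-loop-helix factors Olig1 and Olig2 and the SoxE factors Sox8 and Sox10 set up the lineage, platelet-derived growth factor acting through the receptor Pdgfra keeps precursors dividing, and Myrf later switches on the myelin genes. In the adult subventricular zone Olig2 is also found in dividing progenitors, some of which yield oligodendrocytes, while Pax6 favours neurons.

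The medians of the precursor and myelin genes lay on opposite sides of zero, but few single genes differed beyond the error. Mean signal was lower with olaparib for 9 of 13 precursor genes and higher for 14 of 15 myelin genes, whereas 52.0% of all 19937 genes had a higher mean. The median difference, olaparib minus DMSO, was -0.14 on the log2 scale for the precursor genes and 0.11 for the myelin genes, against 0.0042 for all genes. Of the 25 members bright enough to test, the proteoglycan gene Cspg4 rose by 0.33 and the membrane protein gene Lhfpl3 fell by 0.46, while 23 did not pass an adjusted p of 0.05 in limma. Over all 13956 genes tested 6.22% passed, 2.84% as higher and 3.37% as lower, so 2 of 25 is a share near that background. The counts of direction and the medians are descriptive, and the precursor and myelin medians were not tested against each other.

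**Figure D1:**
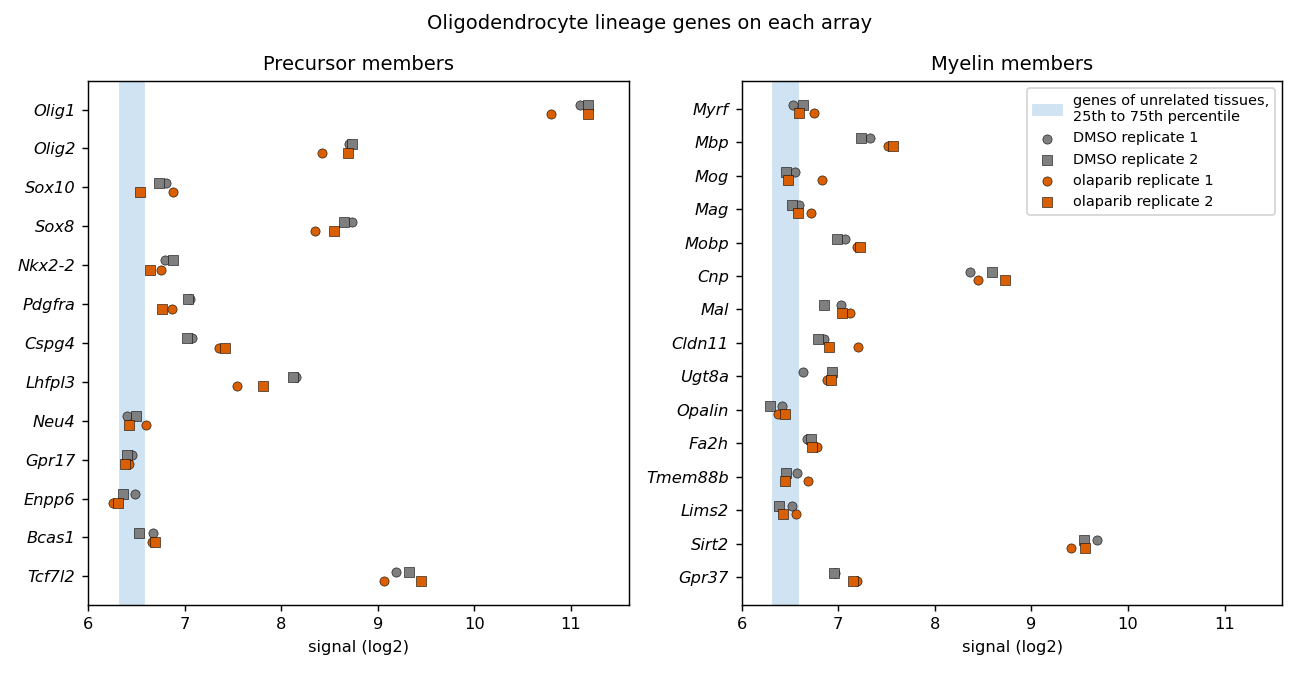
Signal (log2) of the 13 precursor and 15 myelin genes on each of the 4 arrays, grey for DMSO and orange for olaparib, circles for replicate 1 and squares for replicate 2. The shaded band is the 25th to 75th percentile (6.33 to 6.58) of 24 genes of unrelated tissues; Olig1 near 11 lies far above it, and the points of Gpr17, Enpp6, Opalin and Lims2 lie in or beside it.

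How far the signal of these genes stood above background limits what can be read from them. A list of 24 genes of tissues such as liver, muscle and testis had a median of 6.39 and a highest mean of 7.77 on the log2 scale. Only 7 members had a mean above that highest value, namely the precursor genes Olig1, Olig2, Sox8, Tcf7l2 and Lhfpl3 and the myelin genes Cnp and Sirt2. The other 21 lay within the range of the unrelated genes, and 6 of these (Neu4, Gpr17, Enpp6, Opalin, Tmem88b and Lims2) lay at or below its 75th percentile of 6.58. Most defining transcripts of mature oligodendrocytes, such as Mog and Mag, were therefore close to the level of genes that these cells are not known to express. The sizes of differences in such dim genes are less certain.

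None of the 7 transcription factors of the lineage passed the test; Olig1, Olig2, Sox8 and Tcf7l2 were bright, and Sox10, Nkx2-2 and Myrf lay within the range of the unrelated genes. Olig1 read 11.10 and 11.18 with DMSO and 10.79 and 11.18 with olaparib, a difference of -0.15 (SE 0.13, adjusted p = 0.627). Olig2 read 8.70 and 8.73 with DMSO and 8.42 and 8.69 with olaparib, a difference of -0.16 (SE 0.11, adjusted p = 0.499). In both genes olaparib replicate 1 was the low array and replicate 2 lay beside the controls. Without replicate 1 the differences were 0.04 for Olig1 and -0.02 for Olig2, and without replicate 2 they were -0.34 and -0.29. Olig1 and Olig2 are neighbours on chromosome 16 with 0 protein-coding genes between them in the RefSeq table.

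Sox8 read 8.73 and 8.65 with DMSO and 8.35 and 8.55 with olaparib, a difference of -0.24 (SE 0.10, adjusted p = 0.207). Both olaparib arrays lay below both controls, again with replicate 1 lower, and without replicate 2 the difference was -0.34. Its relative Sox10, the SoxE factor that oligodendrocytes keep throughout life, read 6.80 and 6.74 with DMSO and 6.88 and 6.54 with olaparib. The groups overlapped (difference -0.06, adjusted p = 0.825). The Sox10 difference was 0.11 without olaparib replicate 2 and -0.23 without replicate 1. Nkx2-2, a homeodomain factor that promotes differentiation of precursors, read 6.80 and 6.88 against 6.76 and 6.64, so the olaparib arrays were lower without overlap (difference -0.14, SE 0.08, adjusted p = 0.376).

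Factors of the later steps did not differ beyond their spread. Tcf7l2, a Wnt effector that is prominent in newly forming oligodendrocytes, read 9.19 and 9.32 with DMSO and 9.07 and 9.45 with olaparib (difference 0.0022, SE 0.12, adjusted p = 0.998). The olaparib arrays lay on either side of the controls, and the sign of this difference turned under quantile and cyclic loess normalization. Myrf, the membrane-bound factor that drives myelin genes, read 6.53 and 6.64 against 6.75 and 6.60, with overlapping groups and a difference of 0.09 (adjusted p = 0.668). In all 7 lineage factors the SD between the olaparib arrays was larger than that between the DMSO arrays, as in 63.2% of all genes.

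The surface proteins of precursor cells held both genes that passed. Cspg4 encodes the NG2 proteoglycan, which precursors and pericytes carry, and read 7.08 and 7.03 with DMSO and 7.36 and 7.42 with olaparib. Both olaparib arrays were higher, by 0.33 (SE 0.08, adjusted p = 0.0122), a 1.26-fold rise. The mean of Cspg4, 7.22, lay within the range of the unrelated genes, so this size is less certain. The call was lost without DMSO replicate 1 (adjusted p = 0.0791) and without DMSO replicate 2 (adjusted p = 0.186), while the rise itself stayed between 0.30 and 0.36 with any 1 array left out. Because pericytes also make NG2, 12 vascular, mural and fibroblast markers were read beside it: 10 lay at or below the 75th percentile of the unrelated genes, 0 of 5 tested passed, and their summed linear signal ran from 1222 to 1231 with DMSO and from 1199 to 1236 with olaparib. The part of other cell types in the rise of Cspg4 was not tested. The brightest of those markers were Acta2, a smooth muscle actin, with a difference of 0.05 (adjusted p = 0.868), and the collagen gene Col1a1, with -0.12 (adjusted p = 0.527).

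Lhfpl3, a tetraspan membrane protein gene enriched in oligodendrocyte precursors, read 8.15 and 8.12 with DMSO and 7.54 and 7.81 with olaparib. Both olaparib arrays were lower, by 0.46 (SE 0.10, adjusted p = 0.0071), a 1.37-fold fall. The call was lost without DMSO replicate 1 (adjusted p = 0.0583), and the difference ran from -0.60 without olaparib replicate 2 to -0.32 without olaparib replicate 1. Pdgfra, the receptor that holds precursors in cycle, read 7.05 and 7.04 against 6.87 and 6.77, so the groups were apart (difference -0.23, SE 0.08, adjusted p = 0.0945). The Pdgfra difference was -0.28 without olaparib replicate 1 and -0.17 without replicate 2. Neu4, a sialidase gene of precursors, was near background in every array (difference 0.06, adjusted p = 0.809).

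Both calls depended on how a gene's error was estimated from 4 arrays. In the main fit the spread shared over all genes counted for 18.1 degrees of freedom, and a gene's own arrays for 2. Leaving out 1 array left 0 of the 25 tested members past the threshold without DMSO replicate 1 (6 at an unadjusted p under 0.05; 1.85% of all genes passed), 1, Lhfpl3, without DMSO replicate 2 (2.1% of all genes), 5 without olaparib replicate 1 (15.1%) and 7 without olaparib replicate 2 (11.5%). When limma was fitted to all 21704 probe sets above the same signal, including those with no gene or several genes, 12 genes or 0.086% of those tested passed, and neither Cspg4 (adjusted p = 0.154) nor Lhfpl3 (adjusted p = 0.158) was among them. In that fit 0 of the 25 tested members passed, with 5 at an unadjusted p under 0.05, as were 1849 of all 13956 genes tested. In the fit with 1 probe set a gene 8 members were at that p, as were 19.1% of all genes tested.

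The DNA upstream of the start sites of these 2 genes is shown because they are the members that passed, in opposite directions. Each run is the 250 bases before the RefSeq start site in GRCm38.p6, on the plus strand, with matches to the searched motifs in capitals.
Lhfpl3, chr5:22745804-22746053: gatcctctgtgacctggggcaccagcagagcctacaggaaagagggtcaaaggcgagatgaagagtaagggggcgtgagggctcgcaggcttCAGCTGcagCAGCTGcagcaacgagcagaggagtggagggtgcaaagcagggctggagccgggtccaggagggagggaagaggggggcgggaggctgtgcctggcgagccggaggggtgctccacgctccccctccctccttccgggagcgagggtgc
Cspg4, chr9:56864854-56865103: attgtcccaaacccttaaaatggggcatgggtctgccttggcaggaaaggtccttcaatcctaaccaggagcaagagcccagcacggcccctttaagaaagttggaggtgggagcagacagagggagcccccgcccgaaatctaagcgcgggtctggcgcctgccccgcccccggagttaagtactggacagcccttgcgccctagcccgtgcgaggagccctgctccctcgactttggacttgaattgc
The motifs were the SOX cores ACAAAG and ACAATG and the E-box CAGCTG, a sequence that Olig2 and other basic helix-loop-helix factors can bind, each on both strands. The Lhfpl3 run holds 2 matches to CAGCTG, separated by a few bases, and the Cspg4 run holds 0 matches to any of the 3 motifs. CAGCTG occurred in 13.0% of 32851 promoters of this length and in 1 of the 23 promoters listed for 20 member genes, that of Lhfpl3. ACAAAG occurred in 16.5% of all promoters and in 6 member promoters (those of Cnp, Mag, Mobp, Opalin and Tcf7l2), and ACAATG in 10.7% and in 5 (those of Enpp6, Olig2, Sirt2, Tcf7l2 and Tmem88b). A match describes letters only, and no binding was measured here. The other 8 members had no entry in the promoter table.

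Genes of committed precursors were near background and showed no difference that could be called. Gpr17, a receptor expressed briefly before myelination, and Enpp6, a choline phosphodiesterase gene of newly forming oligodendrocytes, were too dim to test. Enpp6 read 6.48 and 6.37 with DMSO and 6.26 and 6.31 with olaparib, without overlap but below the median of the unrelated genes in the olaparib group. Gpr17 ranged from 6.38 to 6.46 over the 4 arrays. Bcas1, which marks oligodendrocytes that begin to myelinate, ranged from 6.53 to 6.70 (difference 0.08, adjusted p = 0.706). Gpr17 overlaps Lims2, another member, on chromosome 18.

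**Figure D2:**
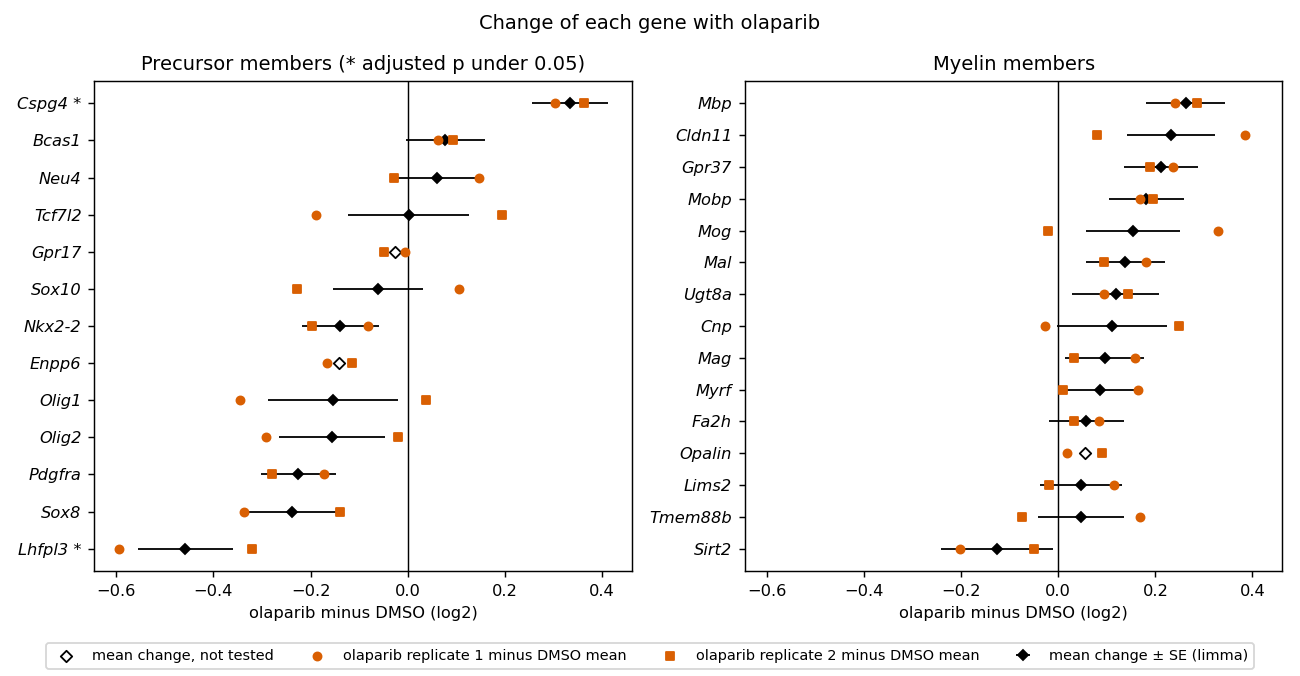
Olaparib minus DMSO (log2) for each gene: black diamonds with bars are the mean and its SE from limma, open diamonds are genes too dim to test, and orange circles and squares are olaparib replicates 1 and 2 minus the DMSO mean. Among the precursor genes Cspg4 at 0.33 and Lhfpl3 at -0.46 carry the asterisk of an adjusted p under 0.05, and among the myelin genes Sirt2 at -0.13 alone lies below zero.

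Genes of the myelin sheath had slightly higher means with olaparib, and none passed the test. All 10 myelin membrane genes had a higher mean (median difference 0.15), and 0 of the 9 tested passed, with 4 at an unadjusted p under 0.05, where 19.1% of all genes tested were. Mbp, the basic protein that compacts myelin, read 7.33 and 7.23 with DMSO and 7.52 and 7.57 with olaparib (difference 0.26, SE 0.08, adjusted p = 0.0590). Both olaparib arrays were higher, and Mbp passed under quantile normalization (adjusted p = 0.0487), cyclic loess normalization (adjusted p = 0.0421) and a filter at the 50th percentile (adjusted p = 0.0394). It did not pass without either DMSO array, with adjusted p = 0.218 and 0.562.

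Cldn11, the tight junction protein of myelin, read 6.86 and 6.79 with DMSO and 7.21 and 6.90 with olaparib (difference 0.23, SE 0.09, adjusted p = 0.148). Most of this came from olaparib replicate 1, without which the difference was 0.08, and without replicate 2 it was 0.38. Gpr37, a receptor of maturing oligodendrocytes, read 6.96 and 6.96 against 7.20 and 7.15 (difference 0.21, SE 0.08, adjusted p = 0.111). Its arrays were close within each group and apart between them. Mobp, another basic protein of compact myelin, read 7.07 and 6.99 against 7.20 and 7.22 (difference 0.18, adjusted p = 0.194).

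Mal, a proteolipid that helps sort myelin proteins, read 7.03 and 6.85 with DMSO and 7.12 and 7.04 with olaparib (difference 0.14, adjusted p = 0.397), with almost no gap between the groups. Mog, an outer surface protein of myelin, stood out only on olaparib replicate 1 at 6.84, against 6.46 to 6.56 on the other three arrays (difference 0.15, adjusted p = 0.437). Without olaparib replicate 1 its difference was -0.02, and without replicate 2 it was 0.33. Mag, a receptor at the inner face of the sheath, ranged from 6.52 to 6.72 (difference 0.10, adjusted p = 0.614). Cnp, a phosphodiesterase of non-compact myelin and the brightest sheath gene, read 8.36 and 8.59 against 8.45 and 8.73, where the spread within each group exceeded the difference of 0.11 (adjusted p = 0.697). Opalin and Tmem88b, membrane proteins of mature oligodendrocytes, differed by 0.05 each, the former without a test.

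The lipid enzymes and the remaining maturation genes showed less. Fa2h, which hydroxylates the fatty acids of myelin lipids, read 6.68 and 6.71 with DMSO and 6.78 and 6.73 with olaparib, apart but by 0.06 (adjusted p = 0.787). Ugt8a, which makes galactocerebroside, read from 6.64 to 6.93, with DMSO replicate 1 as the low array (difference 0.12, adjusted p = 0.550). Lims2, an adaptor of focal adhesions, differed by 0.05 (adjusted p = 0.856). Sirt2, a deacetylase abundant in myelin and made by many cell types, was the myelin member that had a lower mean, at 9.68 and 9.54 with DMSO and 9.41 and 9.56 with olaparib (difference -0.13, adjusted p = 0.649).

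Separation of the groups was counted in each class. Groups did not overlap in 13 of 28 members, against 41.5% of all genes. Among the myelin genes 6 of 15 were apart with olaparib higher and 0 with olaparib lower, where 21.3% and 20.2% of all genes were. Among the precursor genes 6 of 13 were apart with olaparib lower and 1, Cspg4, with olaparib higher. The mean log2 signal of the 15 myelin genes was 7.05 and 7.02 on the DMSO arrays and 7.18 and 7.12 on the olaparib arrays, and that of the 13 precursor genes was 7.66 and 7.65 against 7.54 and 7.60. With 1 array left out the myelin median ran from 0.08 to 0.16, and the precursor median from -0.17 without olaparib replicate 2 to -0.05 without olaparib replicate 1. The precursor median was also -0.08 without DMSO replicate 1.

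The arrays also differed with brightness over all genes. Over 7018 genes with a mean up to 6.5, where 3 precursor and 2 myelin genes lie, the median difference of olaparib replicate 1 from the DMSO mean was 0.02. Over 4202 genes with a mean between 6.5 and 7, where 7 myelin and 4 precursor genes lie, that median was 0.03, and over 2724 genes above 8.5, where 4 precursor and 2 myelin genes lie, it was -0.03. On olaparib replicate 2 the same medians were -0.0042, -0.05 and 0.11. Over 2604 genes between 7 and 7.5, where Cspg4 and 4 myelin genes lie, the medians were -0.013 on replicate 1 and -0.009 on replicate 2. Over 3389 genes between 7.5 and 8.5, where Lhfpl3 lies, they were -0.04 and 0.04. Quantile normalization, which gives every array the same distribution, left medians of -0.13 for the precursor genes and 0.10 for the myelin genes. It called 3 of the 25 tested members (Cspg4, Lhfpl3 and Mbp), against 9.39% of all genes.

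**Figure D3:**
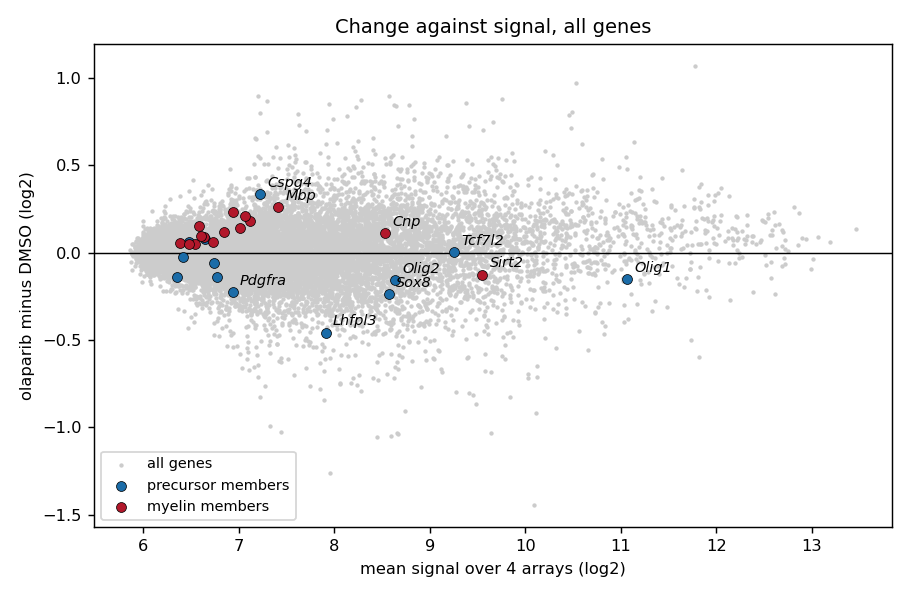
Olaparib minus DMSO (log2) against the mean signal over the 4 arrays (log2) for all 19937 genes in grey, with the 13 precursor genes in blue and the 15 myelin genes in red. The myelin genes cluster between 6.4 and 7.5 just above zero, and Lhfpl3 and Cspg4 lie at the edges of the members but inside the cloud of all genes.

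Other genes of the lineage were taken from 4 further lists, of which the further myelin and precursor lists had medians near zero. Of 28 tested genes in a second myelin list, 3 rose and 3 fell, where 2.84% and 3.37% of all genes did. The median difference was 0.02 over 29 genes. Apod, a lipid-binding apolipoprotein gene of oligodendrocytes and other glia, read 7.17 and 7.28 with DMSO and 7.89 and 8.14 with olaparib, a rise of 0.79 (SE 0.09, adjusted p = 2.49e-05). Trf, the iron carrier transferrin, rose by 0.51 (adjusted p = 0.0023) and Car2, a carbonic anhydrase, by 0.50 (adjusted p = 0.00797). The genes that fell were Gamt, an enzyme of creatine synthesis, by 0.48 (adjusted p = 0.00586), together with Plekhb1 by 0.40 and Aspa, which breaks down N-acetylaspartate, by 0.35, both named after their values were seen.

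Of 23 tested genes in a second precursor list, 2 rose and 2 fell, where 2.84% and 3.37% of all genes did. The median over 26 genes was -0.01. The chondroitin sulphate proteoglycan gene Vcan rose by 0.38 (adjusted p = 0.0289) and Itpr2, a calcium channel of newly forming oligodendrocytes, by 0.31 (adjusted p = 0.0355). Tnr, a matrix glycoprotein of precursors and neurons, read 7.33 and 7.25 with DMSO and 6.86 and 6.87 with olaparib, a fall of 0.43 (SE 0.08, adjusted p = 0.00168). Rlbp1, a retinoid-binding protein gene, fell by 0.46 (adjusted p = 0.00199).

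Of 33 tested signalling genes that act on precursors, 10 fell, 1 rose and 22 did not pass (median difference -0.05 over 35 genes), where 3.37% and 2.84% of all genes did. Pdgfa, the ligand of Pdgfra, read 7.28 and 7.25 with DMSO and 7.90 and 8.09 with olaparib. Both olaparib arrays were higher, by 0.73 (SE 0.09, adjusted p = 3.39e-05). The receptor gene itself did not pass in limma, as given above (difference -0.23, adjusted p = 0.0945). Cxcr4, the chemokine receptor of migrating precursors and neuroblasts, read 9.85 and 9.98 against 8.97 and 9.13, a fall of 0.87 (SE 0.11, adjusted p = 8.15e-05). Igf1, a growth factor that favours oligodendrocyte maturation, fell by 0.47 (adjusted p = 0.000636) and Ptch1, the hedgehog receptor, by 0.67 (adjusted p = 0.000761). Many of these genes also act in neuroblasts and stem cells.

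Among regulators of the lineage, 5 of 30 tested fell and 1 rose, where 3.37% and 2.84% of all genes did. Their median was -0.12 over 32 genes. Chd7, a chromatin remodeller, fell by 0.56 (SE 0.11, adjusted p = 0.00499), but by 0.23 as the mean of its 30 probe sets, which did not pass (adjusted p = 0.127). Nfia, a factor of gliogenesis, fell by 0.56 (adjusted p = 0.00803) and Id4, an inhibitor of helix-loop-helix factors, by 0.36 (adjusted p = 0.0209). Nfatc3, a calcium-regulated factor, rose by 0.49 (adjusted p = 0.00369). The remaining falls were those of St18 by 0.29 and Hdac3, a histone deacetylase, by 0.31, both named after their values were seen.

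**Figure D4:**
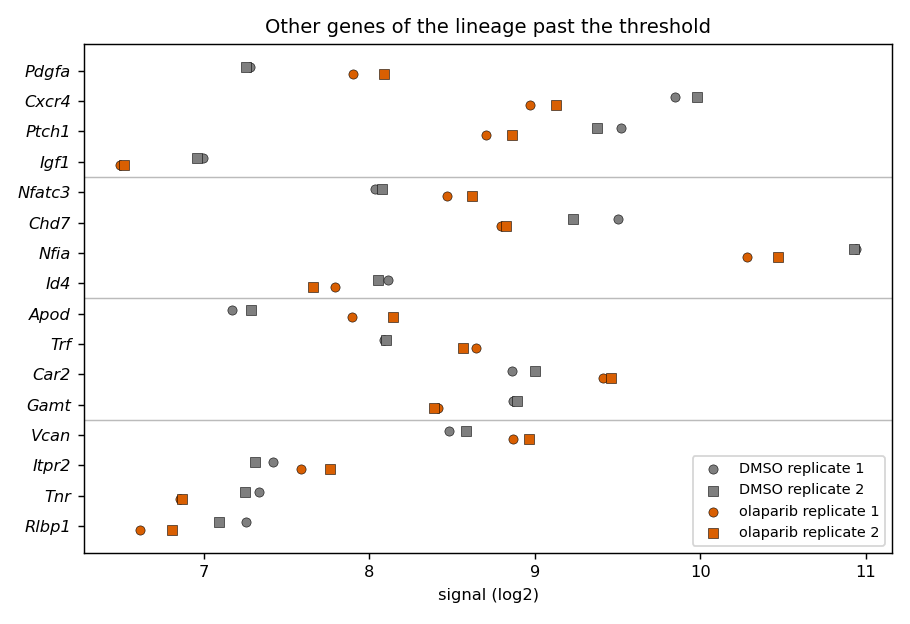
Signal (log2) on each array of 16 genes past the threshold in the 4 further lists, in blocks for signalling, regulators, myelin and precursor genes from top to bottom, grey for DMSO and orange for olaparib. The genes were picked for a small p, which favours groups that lie apart. In each gene the orange points lie on 1 side of the grey points, such as Pdgfa at 7.90 and 8.09 against 7.28 and 7.25.

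Of the 27 genes past the threshold in these 4 lists, 7 still passed without DMSO replicate 1, 9 without DMSO replicate 2, 25 without olaparib replicate 1 and 26 without olaparib replicate 2. The 5 that passed in each of those fits were Apod, Pdgfa, Cxcr4, Igf1 and Tnr. None passed when limma was given every probe set, where adjusted p was 0.0561 for Pdgfa, 0.0576 for Apod and for Cxcr4, 0.0709 for Igf1 and 0.0892 for Tnr.

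Some markers of astrocytes and neuroblasts also fell. Of 9 tested astrocyte markers 3 fell and 0 rose, where 3.37% and 2.84% of all genes did. The 3 were Gfap, Aqp4 and Fgfr3, named after their values were seen. The summed linear signal of 10 astrocyte markers ran from 14408 to 14629 with DMSO and from 10970 to 12697 with olaparib. The brightest were Aldoc, a glycolytic enzyme, with a difference of -0.15 (adjusted p = 0.619), and the glutamate transporter gene Slc1a3, with -0.31 (adjusted p = 0.148). Of 11 tested neuroblast and neuron markers 3 fell (Dcx, Gad2 and Nsg2, likewise named afterwards) and 0 rose, against the same shares of all genes. The brightest of these, Cd24a and Tubb3, differed by 0.08 (adjusted p = 0.825) and -0.32 (adjusted p = 0.134). The summed signal of the 12 was 4862 and 5226 with DMSO and 4224 and 4687 with olaparib. The summed signal of the 13 precursor genes, of which Olig1 was the brightest, was 4754 and 4900 with DMSO and 4036 and 4852 with olaparib. That of the 15 myelin genes was 2573 and 2517 against 2630 and 2682. Sirt2, made by many cell types, and Cnp were the brightest of these, at mean log2 signals of 9.55 and 8.53. The part that a changed mixture of cells plays in the lineage genes was not tested.

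Myelin is also made by Schwann cells of peripheral nerve, and 6 of their markers were read. Of 4 tested 0 passed, with 1 at an unadjusted p under 0.05 in limma, where 19.1% of all genes tested were. Of the 6, 3 lay at or below the 75th percentile of the unrelated genes. The brightest were Cdh19, a cadherin gene, and Drp2, a dystrophin-related protein gene, at differences of -0.06 and -0.20 (adjusted p = 0.827 and 0.161). Of 6 tested ependymal markers 0 passed, with 1 at an unadjusted p under 0.05, and the cilia genes Foxj1 and Rsph1 differed by -0.09 and -0.24 (adjusted p = 0.613 and 0.0851). Of 5 tested microglial markers 0 passed, with 1 at an unadjusted p under 0.05, and Trem2 and Cx3cr1 differed by -0.03 and -0.04 (adjusted p = 0.913 and 0.880).

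**Figure D5:**
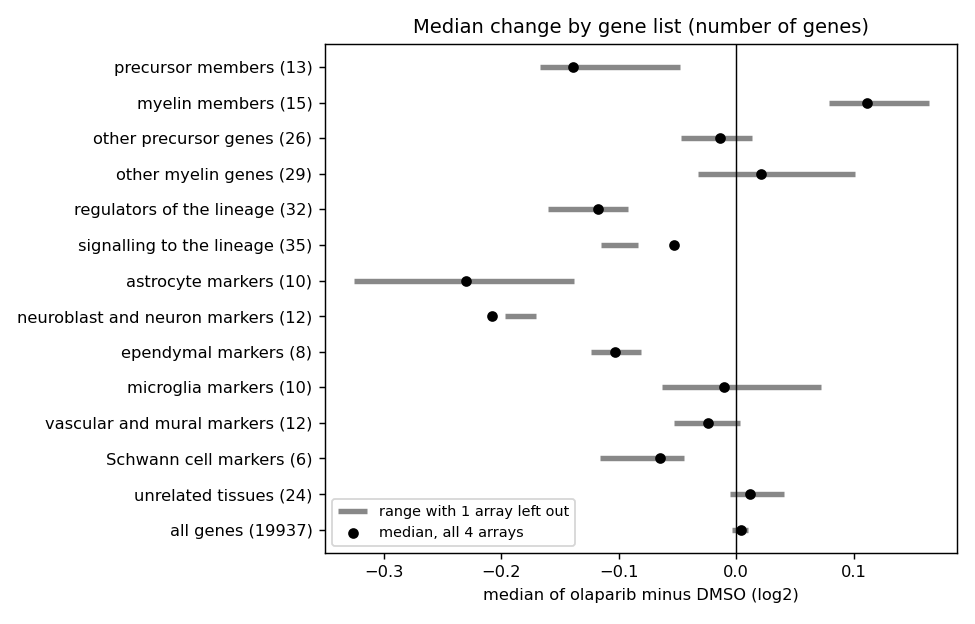
Median of olaparib minus DMSO (log2) for each gene list, with the number of genes in brackets: black points use all 4 arrays and grey bars span the medians obtained with 1 array left out. The precursor genes at -0.14 and the myelin genes at 0.11 lie apart, the second precursor and myelin lists at -0.01 and 0.02 lie near zero, and astrocyte markers lie at -0.23.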

How the data were processed

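Total RNA (40 ng a sample) was amplified, tagged with biotin and put on Affymetrix arrays, per the labels' protocols. The authors deposited 1 log2 signal per probe set and array for 4 arrays; their background correction, normalization and software are not given in the sources used here. Array medians lay between 6.60 and 6.68. Of 34760 probe sets, 21640 named 1 gene, 1321 several and 11799 none; the brightest probe set stood for a gene, and names followed the RefSeq table of GRCm38.p6, which matched 19855 of 19937 genes. Genes with a mean above the 30th percentile (6.42) were tested, olaparib minus DMSO, in limma 3.58.1 (lmFit, then eBayes with trend=TRUE; R 4.3.3) with two-sided tests, Benjamini-Hochberg adjusted over all 13956 genes, threshold 0.05. The fit was tested on simulated data. Alternatives were other filters, normalizations and priors, averaged probe sets, and leaving out each array. Members and lists were chosen with earlier results of these data known, so no set test was made and no p was adjusted over a list. Every member was named, with up to 4 called genes by smallest p from each further list and the 2 brightest of each marker list. Linear signals summed over markers are 2 to the power of the deposited values. Figures used matplotlib 3.10.9 under Python 3.11.15.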

Additional observations from a re-analysis of the deposited data

How the results depend on the processing

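With 12 alternative settings, the number of genes past the threshold was 868 as reported, 573 without a filter, 1311 after quantile normalization and 12 with all probe sets in the fit, and ran from 258 to 2112 with 1 array left out. Members past it numbered 2 as reported, 0 with all probe sets in the fit (5 at an unadjusted p under 0.05), and from 0 to 7 with 1 array left out. The precursor median was -0.16 over only those members that pass a filter at the 50th percentile, against -0.14 over all 13. Over all 13 it ran from -0.17 to -0.048 with 1 array left out. The myelin median kept its sign in every setting run. With 1 array left out the difference changed sign in 9 tested members, ranging from -0.34 to 0.038 for Olig1, -0.23 to 0.11 for Sox10, -0.028 to 0.15 for Neu4, -0.19 to 0.19 for Tcf7l2, -0.022 to 0.33 for Mog, -0.027 to 0.25 for Cnp, -0.030 to 0.27 for Ugt8a, -0.075 to 0.17 for Tmem88b and -0.020 to 0.11 for Lims2, and in the untested Gpr17 and Opalin. Tcf7l2 was also at -0.034 under quantile and -0.033 under cyclic loess normalization. The causes were not tested. Leaving out a DMSO array takes the spread from the olaparib pair alone (median SD 0.077 against 0.048 for DMSO). Leaving out an olaparib array takes it from the tighter DMSO pair alone. In both cases the lone array is assumed to vary like the pair. No paired analysis was possible because no label ties a DMSO array to an olaparib array; the replicate numbers used here follow accession order and only name arrays. Signal within the range of the unrelated genes limits 21 of the 28 members, and 6 of these lay at or below the 75th percentile of that range.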
